A study of Mus musculus with 2 samples.

Results

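The mouse genes whose symbol is Gpr followed by digits code for G protein-coupled receptors that were named before their ligands were known. The members were the protein-coding genes of mm10 with such a symbol, without Gpr34 and Gpr171, which gave 68 of 21883 protein-coding genes. The name fits the set only in part. Several members have since been paired with a ligand, such as Gpr183 with oxysterols and Gpr84 with medium-chain fatty acids. Another 7 (Gpr89, Gpr107, Gpr108, Gpr137, Gpr143, Gpr155 and Gpr180) code for multi-pass proteins of intracellular membranes or for proteins that are not classical surface receptors. They are therefore called Gpr genes here rather than orphan receptors. Contacts were measured by H3K27ac HiChIP, which ligates DNA segments that lie close together in the nucleus and enriches those whose histone H3 is acetylated at lysine 27, as it is at active enhancers and promoters. The cells were CD45-intermediate, CD11b-intermediate microglia sorted from wild-type male C57BL/6J mice aged 8 to 24 weeks, with 200000 to 300000 cells of a hemisphere as input. One group had sham surgery, and the other was taken 6 days after the start of a transient middle cerebral artery occlusion (MCAO) of 60 minutes, which models ischemic stroke. Each group was 1 library, with animal numbers not given in the sources used here, so no difference below has a replicate check or a test.

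G protein-coupled receptors cross the membrane with a bundle of helices, and on binding an agonist they activate heterotrimeric G proteins, whose subunits are classed by the alpha chain (Gs, Gi, Gq and G12/13 families). Receptor kinases and arrestins then silence the receptor, and RGS proteins speed the return of the alpha subunit to its inactive state. Microglia are known to use such receptors to sense nucleotides, lipids, chemokines and protons, and so to survey tissue and to move toward injury.

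Each library was deposited as a list of called interactions, that is, pairs of 10 kb bins (anchors) 20 to 2000 kb apart with more contacts than the caller expected. The sham list held 501608 contacts and the day 6 list 1074041, or 2.14 times as many, so that equal shares of the called contacts correspond to a raw increase of that size. The contacts that the caller modelled went the other way, with 3629250 in sham and 2258259 at day 6. For each gene the interactions with an anchor on the span, widened by 1 kb on each side, were counted and their contacts summed. The log2 ratio given for a gene (day 6 over sham) is a ratio of shares of the called contacts, after a prior of 5 contacts. The interval in brackets after it is that of the ratio of shares without the prior, so the value need not lie at its middle. A gene with at least 3 interactions in 1 list was ranked as having more contacts at a log2 ratio of 1 or above, fewer at -1 or below, and neither in between. All 8 microglia markers had interactions in both lists, with 2229 contacts in sham and 2545 at day 6. By the rule of size 0 of them had more contacts, 4 fewer and 4 neither, with a median log2 ratio of -0.95. Over all ranked genes 39.1% had more and 10.3% fewer. Of the markers of other cells, those of neutrophils (0 of 4) had none and those of neurons had them only at Rbfox3 (132 and 71 contacts). Interactions were also called at 3 of 4 monocyte markers (275 contacts in sham, 258 at day 6; none at Ly6c2), 3 of 4 border macrophage markers (63 and 226; none at Cd163) and 3 of 4 endothelial markers (101 and 405; none at Cldn5). The sums were 149 and 359 contacts for B cell markers, 0 and 24 for 3 T and NK cell markers, 181 and 375 for astrocyte markers (none at Aqp4) and 219 and 484 for oligodendrocyte markers. The part of other cells in the values of the Gpr genes was not tested.

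The start regions of 6 Gpr genes are shown as those of genes described at length below. Gpr19 and Gpr107 had more contacts at day 6, and Gpr146, Gpr3, Gpr84 and Gpr132 had a ratio between the limits. None of the genes with fewer contacts is shown. The sequences are 300 bases long, from 250 bases before to 50 bases after the most upstream RefSeq start (GRCm38.p6, the same assembly as mm10), 5′ to 3′ on the strand of the gene. Capitals mark matches, on either strand, to 3 short motifs: AGGAAGT (ETS factors of the PU.1 class), TGANTCA (AP-1) and GGGCGG (SP and KLF factors). Matches to GGGCGG can overlap each other, and a match describes letters and not a bound site.
Gpr19 (chr6:134897876-134898175, minus strand): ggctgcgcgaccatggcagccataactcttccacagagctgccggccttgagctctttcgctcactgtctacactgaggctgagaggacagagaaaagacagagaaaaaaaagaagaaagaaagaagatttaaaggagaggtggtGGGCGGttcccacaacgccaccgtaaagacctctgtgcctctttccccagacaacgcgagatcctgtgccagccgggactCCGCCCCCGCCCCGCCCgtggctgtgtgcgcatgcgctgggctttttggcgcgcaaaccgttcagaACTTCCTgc
Gpr107 (chr2:31152066-31152365, plus strand): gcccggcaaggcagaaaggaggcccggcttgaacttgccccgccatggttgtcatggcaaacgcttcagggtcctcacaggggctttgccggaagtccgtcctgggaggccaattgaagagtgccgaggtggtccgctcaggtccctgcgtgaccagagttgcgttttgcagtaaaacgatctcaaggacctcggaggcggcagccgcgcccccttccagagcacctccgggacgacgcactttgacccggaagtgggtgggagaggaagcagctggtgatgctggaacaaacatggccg
Gpr146 (chr5:139377447-139377746, plus strand): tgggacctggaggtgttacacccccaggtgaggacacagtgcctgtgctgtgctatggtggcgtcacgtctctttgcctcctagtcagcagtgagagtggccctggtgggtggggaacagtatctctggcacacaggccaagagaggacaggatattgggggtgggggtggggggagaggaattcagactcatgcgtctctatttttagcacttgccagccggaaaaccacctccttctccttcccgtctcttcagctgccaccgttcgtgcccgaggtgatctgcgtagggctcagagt
Gpr3 (chr4:133212487-133212786, minus strand): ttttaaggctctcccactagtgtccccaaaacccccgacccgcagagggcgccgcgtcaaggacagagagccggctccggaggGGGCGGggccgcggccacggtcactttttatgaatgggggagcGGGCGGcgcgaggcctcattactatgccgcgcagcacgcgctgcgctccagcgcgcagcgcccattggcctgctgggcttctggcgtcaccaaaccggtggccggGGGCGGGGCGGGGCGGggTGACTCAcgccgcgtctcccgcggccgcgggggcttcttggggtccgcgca
Gpr84 (chr15:103310389-103310688, minus strand): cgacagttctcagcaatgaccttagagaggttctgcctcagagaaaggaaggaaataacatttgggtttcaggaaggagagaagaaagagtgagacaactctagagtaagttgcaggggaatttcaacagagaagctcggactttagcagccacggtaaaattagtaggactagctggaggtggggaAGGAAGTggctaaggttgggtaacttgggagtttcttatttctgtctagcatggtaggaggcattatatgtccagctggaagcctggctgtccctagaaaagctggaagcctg
Gpr132 (chr12:112860867-112861166, minus strand): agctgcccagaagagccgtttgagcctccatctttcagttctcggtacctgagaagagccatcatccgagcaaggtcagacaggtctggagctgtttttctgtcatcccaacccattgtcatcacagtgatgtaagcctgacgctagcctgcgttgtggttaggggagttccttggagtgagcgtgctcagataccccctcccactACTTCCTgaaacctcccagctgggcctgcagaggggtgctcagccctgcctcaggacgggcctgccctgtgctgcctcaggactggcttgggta

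Of the 68 Gpr genes, 49 had a start region in the RefSeq table. The start region of Gpr19 held 4 matches to GGGCGG and 1 to AGGAAGT, and that of Gpr3 held 5 to GGGCGG and 1 to TGANTCA. Those of Gpr84 and Gpr132, which are genes of myeloid cells, each held 1 match to AGGAAGT, and those of Gpr107 and Gpr146 held none of the 3 motifs. Start regions of Gpr146 further downstream held 6 matches to GGGCGG and 1 to TGANTCA. Over all their start regions, 5 of the 49 genes (10.2%) had a match to AGGAAGT, against 10.7% of all 27025 genes in the table, and 9.35% of single start regions held one. These motif shares cover the whole table, of which 17491 genes belong to the protein-coding set used elsewhere, so the background is not protein-coding genes alone. TGANTCA was also found in 5 of the 49 (all genes 8.97%, single regions 7.81%), and GGGCGG in 23 or 46.9% (all genes 38.2%, single regions 35.7%). The Gpr genes also differed among themselves in CpG dinucleotides, counted in the richest start region of a gene. The median was 4 for the 13 lipid, metabolite and chemoattractant receptors of immune cells, 7 for 3 proton sensors, 14.5 for 18 neural and sensory receptors and 21 for 6 intracellular proteins. In the genome as a whole the median was 21 for genes with an interaction and 3 for genes without one, whereas for the Gpr genes these medians were 10 and 8.

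In sham microglia 30 of the 68 Gpr genes (44.1%) had an interaction, and 43.0% of all protein-coding genes did. At day 6 the number was 40 (58.8%), against 61.3% of all genes. Both shares lay within a few percentage points of the background, and the exact 95% binomial intervals (32.1 to 56.7% in sham, 46.2 to 70.6% at day 6) held it. There were 28 members with interactions in both lists, 12 at day 6 alone and 2 in sham alone. The 12 were 28.6% of the 42 members with any interaction, and 31.7% of all genes with any interaction were found at day 6 alone. The pair found in sham alone, Gpr18, a lipid receptor of lymphoid and myeloid cells, and Gpr83, a neuropeptide receptor of the brain and of regulatory T cells, had 1 interaction with 17 contacts each (sham alone over all genes 2.64%). Sums per member ran from 15 to 331 contacts in sham and from 11 to 654 at day 6. The number of members with 10 or more interactions was 2 in sham and 9 at day 6.

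At least 3 interactions in 1 list were present for 27 members (39.7%; all genes 44.0%). Of these, 7 (25.9%) had more contacts at day 6, against 39.1% of all ranked genes. Fewer contacts were found for 4 (14.8%; all genes 10.3%), and 16 (59.3%; all genes 50.6%) had neither. The median log2 ratio of the 27 was 0.01, with quartiles at -0.61 and 0.99, and that of all ranked genes was 0.55. The share between the limits (exact binomial interval 38.8 to 77.6%) is near that of all ranked genes. Of the 7 with more, 4 (Gpr20, Gpr89, Gpr137 and Gpr142) had no interaction in sham. Their level below the caller's limit is unknown, so no fold is given, and as the 4 highest of 27 their exact size did not set the median. Among the 23 ranked members with interactions in both lists, 3 had more (all genes 23.4%) and 4 had fewer (12.7%), with a median of -0.12 (all genes 0.17). In raw contacts, 22 of the 28 members found in both lists were higher at day 6 and 6 were lower. The day 6 list held 2.14 times as many contacts, and the same share over all genes was not computed. This split is therefore no result about the Gpr genes in particular. The split between more and fewer rests on the scaling: with contacts scaled by the interactions found in both lists, 15 members had more and 2 fewer (all genes 66.3% and 1.93%), and scaled by the contacts that the caller modelled, 21 had more and 0 fewer (all genes 84.0% and 0.820%). The anchor bins of 18 of the 27 also touched another protein-coding gene, whose interactions cannot be told apart from those of the Gpr gene in that bin.

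**Figure D1:**
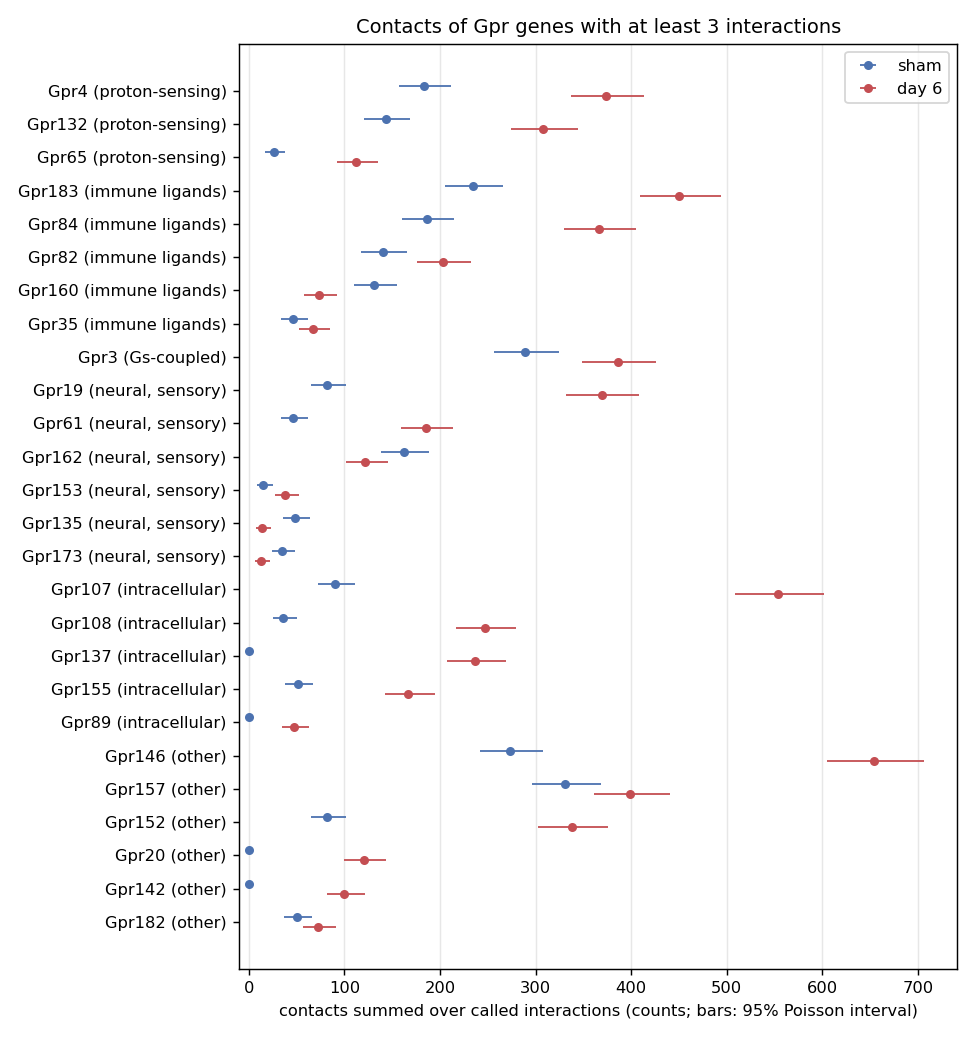
Contacts summed over called interactions (x axis, counts) for 26 of the 27 Gpr genes with at least 3 interactions in 1 list, grouped by role, in the sham library (blue) and the day 6 library (red). Points are the sums of 1 library each and bars are exact 95% Poisson intervals, which cover counting error only. Gpr107 goes from 90 to 554 contacts and Gpr146 from 273 to 654, whereas Gpr160, Gpr162, Gpr135 and Gpr173 lie lower at day 6.

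Proton-sensing receptors, which couple acidification of the surroundings to cyclic AMP and other signals, all had interactions. None of the 3 that were ranked passed the rule of size (neither over all ranked genes 50.6%). Gpr4 (chr7:19212538-19224176) had 4 interactions with 183 contacts (95% Poisson interval 157 to 212) in sham and 11 with 374 (337 to 414) at day 6, a log2 ratio of -0.07 (-0.33 to 0.20). Its strongest partner bins lay on Vasp, a regulator of actin filaments, with 158 contacts in sham and 147 at day 6, so that the further interactions went to other bins, such as those on Eml2 and Rtn2. Gpr132 (chr12:112850873-112868416), a receptor that also answers to oxidized fatty acids, had 5 interactions with 143 contacts (121 to 168) in sham and 12 with 308 (275 to 344) at day 6, a log2 ratio of 0.01 (-0.28 to 0.30). The bin that holds its start site had no interaction in sham and 5 with 124 contacts at day 6. A sham sum of 94 of the 143 contacts came from a bin that only the 1 kb flank reached, and without the flank the counts were 49 and 228 and the log2 ratio 1.07, which is past the limit for more. Gpr65 (chr12:98268635-98276722), the receptor also called TDAG8, had 2 interactions with 26 contacts in sham, 1750 and 1900 kb long. At day 6 it had 3 with 112 contacts, of which 94 lay in a pair of 20 kb interactions, and the log2 ratio was 0.93 (0.38 to 1.68). One of its anchor bins also touched Galc, a lysosomal galactosylceramidase, and the other, with 52 of the day 6 contacts, touched no other coding gene.

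Receptors for lipids, metabolites and chemoattractants of immune cells had interactions at 8 of 13 members (all genes 63.0%). Of the 5 that were ranked, none had more contacts (all ranked genes 39.1%), 1 had fewer (10.3%) and 4 had neither (50.6%), with a median log2 ratio of -0.51. Gpr183 (chr14:121952331-121965193), the oxysterol receptor that positions lymphocytes and myeloid cells, had 4 interactions with 234 contacts (205 to 266) in sham and 12 with 450 (409 to 494) at day 6, a log2 ratio of -0.15 (-0.39 to 0.08). The gene lies within the span of Ubac2, and partner bins on Ubac2 held 211 contacts in sham and 305 at day 6. Interactions with bins on Timm8a2, Dock9 and Tm9sf2 were called at day 6 and not in sham. Gpr84 (chr15:103308233-103310670), a receptor for medium-chain fatty acids that myeloid cells induce in inflammation, had 5 interactions with 186 contacts (160 to 215) in sham and 11 with 366 (329 to 405) at day 6, a log2 ratio of -0.12 (-0.38 to 0.14). Its contacts with bins on Nfe2, a transcription factor of the erythroid and megakaryocyte lineages, went from 132 to 89, and those with bins on Cbx5, which codes for heterochromatin protein HP1 alpha, from 126 to 89. The sums for Nfe2 and Cbx5 overlap, since an interaction with a bin that touches both genes counts in both sums. The 1 such interaction called in both lists had 56 contacts in sham and 40 at day 6. In sham the overlap was larger than these 56 contacts. The day 6 sum was larger because bins on the adjacent Copz1 and Zfp385a, which had none in sham, held 96 and 58 contacts. The class of both genes turned with the setting. With the day 6 list shortened to the length of the sham list both passed the limit for fewer, Gpr183 at -1.06 and Gpr84 at -1.54. Scaled by the contacts that the caller modelled, both passed the limit for more, at 1.60 and 1.63. Scaled by the interactions found in both lists they had 0.92 and 0.95. In the bin of its start site alone Gpr84 had 132 contacts in sham against 111 (log2 ratio -1.30).

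The other 3 ranked members of that group had lower sums. Gpr82 (chrX:13646134-13667433), an orphan receptor of the purinergic-like branch that lies inside Cask, had 7 interactions in each list, whose sum went from 140 contacts (118 to 165) to 203 (176 to 233), a log2 ratio of -0.55 (-0.88 to -0.24). Gpr35 (chr1:92948052-92986391), a receptor for tryptophan metabolites and other ligands that is best known from the gut, went from 46 contacts (34 to 61) to 67 (52 to 85), a log2 ratio of -0.51 (-1.12 to 0.02). Gpr160 (chr3:30855759-30897194) had 6 interactions with 131 contacts (110 to 155) in sham and 3 with 73 (57 to 92) at day 6, a log2 ratio of -1.85 (-2.38 to -1.52). Gpr160 was thus the member of the group with fewer contacts, also in raw counts. The group was set by a list, and no ligand of these kinds is named here for Gpr160 or Gpr82. No coding gene other than Gpr160 lay in its anchor bins, and none of its day 6 interactions survived in lists of equal length. In the bins of its start sites alone the counts were 57 and 58 and the log2 ratio was -0.99, short of the limit. Contacts were lower with bins on Phc3, a Polycomb protein (55 contacts in sham, 23 at day 6), on Skil, a repressor of SMAD signalling (40 in sham, none called at day 6), on Prkci (21 and none), and on Lrrc34 and Lrriq4 together (15 and none). They were higher with bins on Sec62 (none and 35) and Cldn11 (none and 15). Gpr18 was found in sham alone (17 contacts), Gpr55, a receptor for lysophosphatidylinositol, at day 6 alone (13 contacts), and Gpr25 in both (16 and 15 contacts). No interaction was called at Gpr15, Gpr33, Gpr119, Gpr141 or Gpr174.

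For the intracellular and non-classical proteins, interactions were found at 3 of the 7 in sham (all genes 43.0%) and at 6 at day 6 (all genes 61.3%). Of the 5 ranked, 4 had more contacts (39.1% of all ranked genes) and Gpr155 had neither, with a median log2 ratio of 1.60. Of the 4, Gpr89 and Gpr137 had no sham interaction, and Gpr107 and Gpr108 fell short of the limit with a flank of 5 kb (0.99 and 0.91). Gpr107 (chr2:31152102-31216567), a Golgi protein of membrane traffic, had 3 interactions with 90 contacts (72 to 111) in sham and 21 with 554 (509 to 602) at day 6, a log2 ratio of 1.49 (1.20 to 1.86). No other coding gene lay in its anchor bins. Most of the difference lay with the adjacent Fnbp1, a membrane-bending protein of endocytosis, whose bins held 2 interactions with 56 contacts in sham and 9 with 311 at day 6. Of the 3 sham interactions, 1 was called in the same bins at day 6, and both libraries held 28 contacts there. The remaining 12 day 6 interactions reached bins up to 1410 kb away, with genes such as Ncs1 (34 contacts in sham, 24 at day 6), Abl1 (27 at day 6) and Lrrc8a (28 at day 6). In the bin of its start site Gpr107 had 1 interaction with 28 contacts in sham and 6 with 161 at day 6.

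Gpr108 (chr17:57234914-57248743), a relative of Gpr107 known as an entry factor of adeno-associated virus, had 1 interaction with 36 contacts (25 to 50) in sham and 6 with 247 (217 to 280) at day 6, a log2 ratio of 1.60 (1.17 to 2.23). The partner in sham was a bin on Vav1, a guanine nucleotide exchange factor of leukocytes, and at day 6 Vav1 bins held 4 interactions with 206 contacts. The bins of Gpr108 also touched Trip10. Gpr137 (chr19:6938057-6942450), a lysosomal membrane protein, had no interaction in sham and 6 with 237 contacts (208 to 269) at day 6. Its partners lay 20 to 280 kb away, on Esrra, an estrogen-related nuclear receptor (123 contacts), on Plcb3, a phospholipase that G proteins activate (55 contacts), and elsewhere. The bin of Gpr137 is shared with Bad. Gpr89 (chr3:96868298-96905346), a regulator of Golgi acidity, had none in sham and 3 with 47 contacts (35 to 63) at day 6, all 400 to 1150 kb long. Gpr155 (chr2:73341506-73386521), a lysosomal cholesterol sensor, had 1 interaction with 51 contacts (38 to 67) in sham and 7 with 167 (143 to 194) at day 6, a log2 ratio of 0.58 (0.15 to 1.09). In the bins of its start sites Gpr155 had none in sham and 3 with 70 contacts at day 6. Lists of equal length gave it a log2 ratio of 1.01, past the limit. Gpr180 had 2 interactions with 57 contacts at day 6 alone, and none was called at Gpr143, the melanosome protein of ocular albinism.

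**Figure D2:**
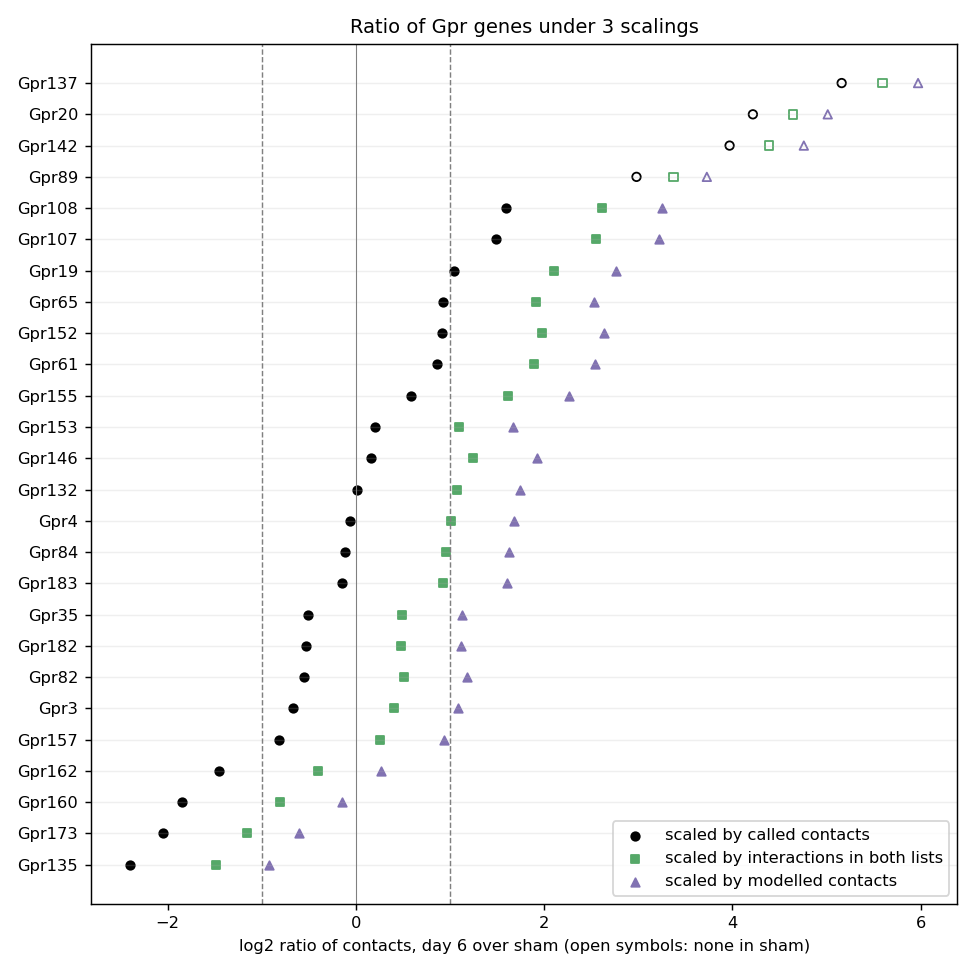
Log2 ratio of contacts, day 6 over sham (x axis), of 26 of the 27 ranked Gpr genes under 3 scalings: called contacts (black circles), interactions found in both lists (green squares) and contacts modelled by the caller (purple triangles). Dashed lines mark -1 and 1, and open symbols are genes without a sham interaction, whose plotted value depends on the prior of 5 contacts. The order of the genes stays nearly the same while the whole set moves to the right, with medians over all 27 of 0.01, 1.08 and 1.68.

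Neural and sensory receptors were the largest group, with interactions at 14 of 30 members (all genes 63.0%). Of 7 that were ranked, 1 had more contacts (all ranked genes 39.1%), 3 had fewer (10.3%) and 3 had neither (50.6%), with a median log2 ratio of -0.70. Gpr19 (chr6:134869092-134898194), an orphan receptor of the brain, had 4 interactions with 82 contacts (65 to 102) in sham and 10 with 369 (332 to 409) at day 6, a log2 ratio of 1.04 (0.72 to 1.43), just past the limit and 0.97 with a prior of 20 contacts. Its difference lay in the bin of the start sites whose promoter is printed above, which touches no other coding gene and had 2 interactions with 30 contacts in sham and 8 with 317 at day 6, a log2 ratio of 2.19. The other anchor bin, shared with Crebl2, held 52 contacts in each library. At day 6 the start bin reached Cdkn1b, the cell cycle inhibitor p27, 20 and 30 kb away with 155 contacts, of which none was called in sham. It also reached Etv6, an ETS repressor, at 670 and 840 kb with 32 contacts.

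The 3 neural members with fewer contacts had low sums or crowded bins. Gpr135 (chr12:72067974-72071101) had 3 interactions with 48 contacts (35 to 64) in sham and 1 with 14 (8 to 23) at day 6, a log2 ratio of -2.40 (-3.85 to -1.99). Gpr173 (chrX:152343598-152368736), a highly conserved brain receptor, had 3 with 35 contacts (24 to 49) and 1 with 13 (7 to 22), a log2 ratio of -2.04 (-3.57 to -1.57). Both are calls on few interactions, and their bins are shared with L3hypdh and Tspyl2. Gpr162 (chr6:124858444-124864195) had 6 interactions with 162 contacts (138 to 189) in sham and 5 with 122 (101 to 146) at day 6, a log2 ratio of -1.46 (-1.86 to -1.16). Its bins lie among P3h3 and Cd4, and the sign turned to 0.27 when contacts were scaled by the number that the caller modelled. Gpr61 (chr3:108148321-108154932), a constitutively active receptor tied to feeding, went from 46 contacts (34 to 61) to 185 (159 to 214), a log2 ratio of 0.87 (0.44 to 1.41), in bins shared with Gnai3, the gene of a Gi alpha subunit. Gpr153 went from 15 to 38 contacts (log2 ratio 0.20). Of the other members of the group, Gpr62 (17 and 22 contacts), Gpr179 of retinal bipolar cells (29 and 48) and Gpr83 (17 and none) had interactions in sham. Gpr85 and Gpr176 had 1 interaction each at day 6 alone, with 18 contacts. There were 16 with none in either list, among them Gpr158, a glycine-binding receptor of synapses, Gpr52 and Gpr139. The glial genes Gpr17, of oligodendrocyte precursors, and Gpr37, of myelinating oligodendrocytes, had none.

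Among the 3 receptors that raise cyclic AMP through Gs without need of an agonist, Gpr6 and Gpr12 had no interaction. Gpr3 (chr4:133209340-133212536) had 11 interactions with 289 contacts (257 to 324) in sham and 13 with 386 (348 to 426) at day 6, a log2 ratio of -0.67 (-0.90 to -0.46). Bins on the adjacent Wasf2, an activator of actin branching, held 157 of the sham contacts and 263 of those at day 6, while bins without a coding gene held 62 and 20. Every anchor bin of Gpr3 also touched Wasf2 or Cd164l2. Its call turned with the lists: with lists of equal length Gpr3 had fewer contacts (289 in sham and 172), and with a q-value under 1e-05 it had more (1.08).

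Of the 9 remaining members all had interactions (all genes 63.0%). Of 6 that were ranked, 2 had more contacts (all ranked genes 39.1%) and 4 neither (50.6%), with a median log2 ratio of 0.54. Gpr146 (chr5:139377697-139396415), a receptor known for its effect on plasma cholesterol, had 9 interactions with 273 contacts (242 to 307) in sham and 16 with 654 (605 to 706) at day 6, a log2 ratio of 0.16 (-0.04 to 0.37). It shared 6 interactions between the lists, more than any other member, and its main partners were bins on 3110082I17Rik, whose span also covers its anchors (175 and 436 contacts). Gpr157 (chr4:150087503-150105927), a receptor of primary cilia, had 13 interactions with 331 contacts (296 to 369) in sham and 16 with 399 (361 to 440) at day 6, a log2 ratio of -0.82 (-1.04 to -0.61). No other coding gene lay in its anchor bins, and its main partners were bins without a coding gene, with 213 contacts in sham and 266 at day 6. In the bin of its start site Gpr157 had 80 and 79 contacts, a log2 ratio of -1.05. Gpr20 (chr15:73688497-73707505), a constitutively active Gi-coupled receptor, had none in sham and 3 with 120 contacts (99 to 143) at day 6, with bins on Slc45a4 (52), on Ptp4a3 (48) and on no gene (20). Gpr142, a tryptophan-sensing receptor of the pancreatic islet, had none in sham and 4 with 100 contacts (81 to 122) at day 6, all from a bin shared with Kif19a and Btbd17. A flank of 5 kb brought 77 sham contacts to Gpr142 and a log2 ratio of 0.22. Gpr152 went from 82 contacts (65 to 102) to 338 (303 to 376), a log2 ratio of 0.92 (0.59 to 1.31) or 1.12 with lists of equal length, in bins crowded with Tmem134, Cabp4 and Coro1b. Gpr182, an endothelial scavenger of chemokines, went from 50 to 72 contacts (log2 ratio -0.53). Not ranked were Gpr1, a chemerin receptor (19 contacts at day 6 alone), and Gpr165 (15 and 12).

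**Figure D3:**
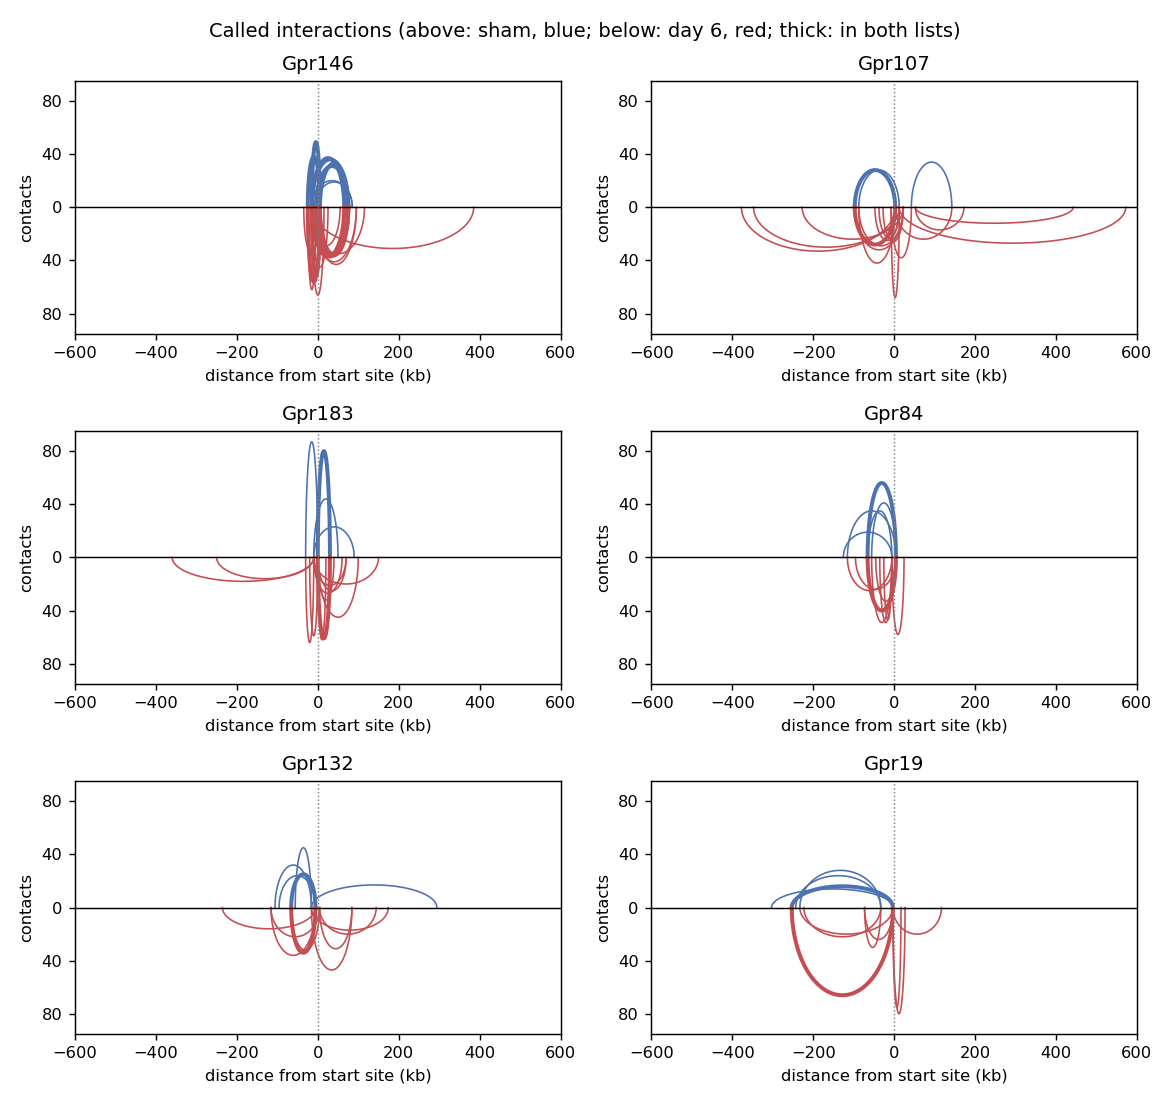
Called interactions of 6 Gpr genes within 600 kb of a start site (x axis, distance in kb), with sham above the line in blue and day 6 below in red. The height of an arc is its contacts (counts), and thick arcs were called in the same bins in both lists. Gpr107 shows 3 arcs in sham and 16 of its 21 day 6 arcs in this window, and the thick arc of Gpr19 deepens from 16 to 66 contacts.

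The Gpr genes had 107 distinct interactions with 2867 contacts in sham and 217 with 6428 contacts at day 6. The median distance was 110 kb in sham (all genes 140 kb) and 100 kb at day 6 (all genes 170 kb), a description with no test. Interactions of 1 Mb or longer made up 2.80% (exact binomial interval 0.582 to 7.98%) in sham and 6.91% (3.92 to 11.1%) at day 6, against 2.66% and 9.81% over all genes. Those under 50 kb were 12.1% (6.63 to 19.9%) in sham and 18.9% (13.9 to 24.7%) at day 6, against 13.0% and 16.1%. These intervals all held the share over all genes. The far end touched no protein-coding gene in 22 of 106 cases in sham (20.8%; all genes 23.9%) and in 33 of 216 at day 6 (15.3%; all genes 19.2%). Of the 107 sham interactions, 41 had an anchor that touched no coding gene other than the Gpr gene, and of the 217 at day 6, 94 did. The median ratio of observed to expected contacts was 3.85 in sham and 3.91 at day 6 (all genes 4.19 and 4.15).

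The same pair of bins was called in both lists for 27 interactions of 14 Gpr genes. These were 25.2% (17.3 to 34.6%) of their sham interactions and 12.4% (8.36 to 17.6%) of those at day 6, against 25.0% and 11.0% for all genes. With anchors allowed to differ by 1 bin, 68 of the 107 (63.6%, interval 53.7 to 72.6%) had a counterpart, and 57.4% of all sham interactions did. In these 27 pairs the raw contacts, with no scaling, had a median log2 ratio of 0.04 and ran from -0.97 to 2.04, with 14 higher at day 6, 10 lower and 3 equal. All 4698 interactions found in both lists had a median of 0.00. In 4 of the 27 (14.8%) the exact 95% interval of the ratio left out 0, against 17.0% of all 4698, so the count is near the background and the 4 are given as a description. The largest ratio was that of the interaction of the Gpr19 start bin with Borcs5, a subunit of the lysosome-positioning complex BORC, 250 kb away. It had 16 contacts in sham, 4.21 times the expected number, and 66 at day 6, 14.6 times the expected number, a log2 ratio of 2.04 (1.24 to 2.93). Over all bins of both genes the contacts were 68 in sham and 108 at day 6. The bin shared with Crebl2 held the other 52 of the sham contacts with Borcs5. Gpr82 had 2 of the 4, both with bins on Cask: at 60 kb the contacts were 13 and 41, a log2 ratio of 1.66 (0.73 to 2.68). At 20 kb, with a bin that also touches Gpr34, they were 43 and 68, a log2 ratio of 0.66 (0.09 to 1.25). The fourth joined Gpr162 to a bin 30 kb away that touches no coding gene, with 41 contacts in sham and 21 at day 6, a log2 ratio of -0.97 (-1.80 to -0.17). The intervals cover counting error only and are not adjusted for the 27 pairs.

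**Figure D4:**
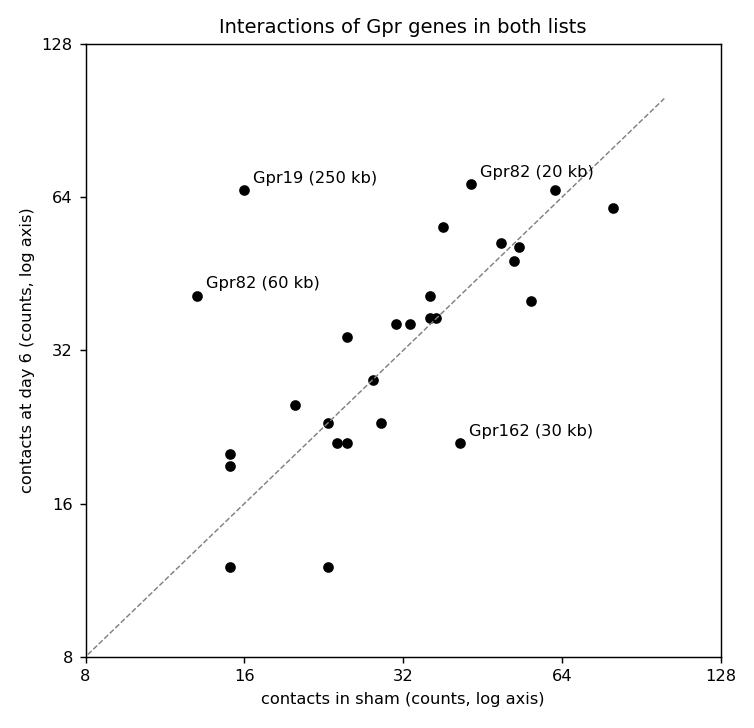
Contacts in sham (x axis, counts, log axis) and at day 6 (y axis, counts, log axis) of the 27 interactions of Gpr genes called in the same bins in both lists, 1 point each, unscaled. The dashed line marks equal counts. Most points lie near the line, and the 4 labelled ones (Gpr19 at 250 kb, Gpr82 at 60 and 20 kb, Gpr162 at 30 kb) are those whose exact 95% interval leaves it out.

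The deposited coverage of a bin is a whole read count. Relative coverage, the ratio of that count to 1 constant per library, could be set side by side for the 28 Gpr genes with a bin that was an anchor in both lists. It was higher at day 6 for 17 of them (60.7%; all genes 60.0%), with a median log2 ratio of 0.13 (all genes 0.09). Among the ranked genes with more contacts, Gpr108 had 1.39 in sham and 2.06 at day 6, and Gpr107 had 1.17 and 1.45. Higher coverage was not limited to them: Gpr146 had 1.13 and 1.64, and Gpr84 1.53 and 2.02, with contacts between the limits. Among the genes with fewer contacts, Gpr135 had 0.718 and 0.429, Gpr162 0.83 and 0.611, Gpr160 1.39 and 1.27, and Gpr173 0.551 and 0.544. Lower coverage was not limited to them either: Gpr153 had 0.534 and 0.282, with a log2 ratio of contacts of 0.20. The part of coverage in these ratios of contacts was not tested.

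**Figure D5:**
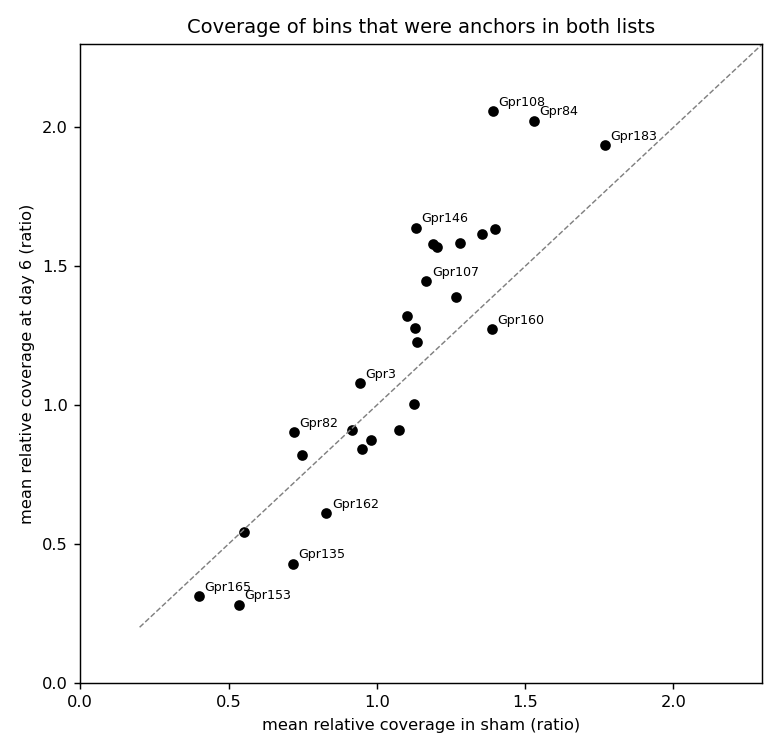
Mean relative coverage (ratio) of bins used as anchors in both libraries, in sham (x axis) and at day 6 (y axis), for 28 Gpr genes, 1 point per gene, some of them labelled. The dashed line marks equal values. Gpr108, Gpr84 and Gpr146 lie above the line and Gpr135, Gpr153 and Gpr162 below it.

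The genes of the proteins that act with the receptors were described by the same rule. Over all genes 63.0% had an interaction, and of all ranked genes 39.1% had more, 10.3% fewer and 50.6% neither. Bins that these genes share with other coding genes were not set apart, such as that of Gnai3 and Gpr61. Of 16 G protein alpha genes, 15 had an interaction and 12 were ranked, with 3 more, 1 fewer and 8 neither (median log2 ratio 0.14). With the prior of 5 contacts the highest ratio was that of Gna13, an alpha subunit of the G12/13 family, with 22 contacts in sham and 799 at day 6 (log2 3.90). The lowest was that of Gnat1, the rod transducin, with 368 and 316 (-1.30), and Gnat2, the cone transducin, had the most contacts of those found in 1 list only, 85 at day 6, with no exact ratio. Of 17 beta and gamma genes, 10 were ranked, with none more, 3 fewer and 7 neither (median 0.18), from Gngt2 (24 and 108 contacts, log2 0.98) to Gng10 (131 and 88, -1.60). Gnb5 had 38 contacts at day 6 alone. Of 21 RGS genes, 9 were ranked, with 3 more, 1 fewer and 5 neither (median 0.03), from Rgs11 (none in sham, 80 contacts at day 6) to Rgs19 (88 and 58, log2 -1.59). Of 10 genes for arrestins and receptor kinases, 7 were ranked, with 2 more, 2 fewer and 3 neither (median -0.18), from Grk3 (none in sham, 140 contacts at day 6) to Grk6 (128 and 51, log2 -2.28). All 4 medians lay below the 0.55 of all ranked genes, as that of the Gpr genes did.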

How the data were processed

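H3K27ac HiChIP of microglia was deposited as 1 list of called interactions per library. HiC-Pro 3.1.0 is named in the submitters' processing notes, with the interaction caller not given in the sources used here. Per the file headers, the authors deposited, for each pair of 10 kb bins, whole contact counts, the expected number of contacts (a signal), the contact probability (a fraction), the p-value and q-value of the caller, and for each bin its read count of coverage and the ratio of that coverage to 1 constant per library. Both lists end just under a q-value of 0.001. Sequencing depth was not analysed here, so sums describe called contacts only. The constant of coverage was 1099 in sham and 799 at day 6, so the library with more called contacts had the lower constant.

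Genes came from the RefSeq annotation of GRCm38.p6. Contacts were summed per gene with Python 3.11.15, pandas 2.3.3 and SciPy 1.17.1. Scripts were tested on simulated data. Values of some members are not reported here. Full values are given for members with at least 3 interactions in 1 list. Of each list of partner proteins, the highest, the lowest and the one with most contacts in 1 list only are named. With 1 library per group, a fixed size limit replaced a test. Intervals (95%, exact Poisson for sums, exact Clopper-Pearson for shares and ratios) cover counting error only, since each group was 1 library. Those of ratios leave out the prior that the log2 ratio of a gene holds. Reads that carry no molecular identifier may be copies of 1 molecule, so the intervals of contacts may be too narrow even for counting error. The members and lists were chosen with earlier results of these data known. Alternatives were scaling, list length, q-value limit, gene span, prior, minimum, shared anchors, distance and bin tolerance. Restricting anchors to the bins of start sites was chosen after seeing the data.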

Additional observations from a re-analysis of the deposited data

How the results depend on the processing

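No paired analysis was possible because each group had 1 library, and for the same reason no replicate could be left out. With contacts scaled by the interactions found in both lists, 15 had more, 2 fewer and 10 neither, and the median log2 ratio was 1.08 (all genes 1.56). Raw contacts without scaling gave the same counts and 1.08 (all genes 1.56). Scaled by modelled contacts, 21 had more, 0 fewer and 6 neither (median 1.68), and Gpr162 turned to 0.27. With lists of equal length, 8 of 21 ranked members had fewer (all genes 17.9%) and 7 neither. With a q-value under 1e-05, 1 of 15 ranked members had fewer (all genes 12.6%) and 9 neither (median 0.62, all genes 0.83). The median was 0.16 without the flank (all genes 0.55) and 0.14 with gene ends only (all genes 0.57). A minimum of 1 interaction gave, of 42 members, 15 more and 7 fewer (all genes 44.8% and 12.7%), with a median of 0.18 (all genes 0.68). With anchors that touched no other coding gene, 14 members had an interaction in sham and 20 at day 6. Of the 11 ranked there, 4 had more, 1 fewer and 6 neither (all genes 38.53% more and 12.03% fewer). In the bins of start sites, an alternative chosen after seeing the data, 17 and 24 of 49 members had an interaction (all genes 31.5% and 52.2%). Of 15 that were ranked, 2 had fewer and 5 neither, and the others had more (all genes 43.1% more and 11.7% fewer). The median there was 1.33 (all genes 0.67), so that the members lay above all genes, unlike in the main setting. With 1 bin of tolerance, 68 interactions were found in both lists. The cause was not tested where the construction (fewer genes, bins or interactions) does not give it. Of the log2 ratios of single members under the alternatives, 253 stayed within the counting interval of the ratio, 123 moved beyond it and 1 (Gpr162) reversed. The 253 include 2 alternatives that leave every ratio as it was, the minimum of 1 interaction and symbols with letters after the digits. Ratios of members without a sham interaction have no upper limit, so they could only move beyond it downward. The 253 are therefore no measure of stability. Gpr107 had more contacts under all alternatives but the 5 kb flank, where its log2 ratio was 0.99. Gpr137, Gpr20 and Gpr89 had no sham interaction and were ranked through day 6 alone, so no scaling or prior could turn their ratio.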
